A study of Mus musculus with 13 samples.

Results

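The genes described here encode the aminoacyl tRNA synthetases, the enzymes that join each amino acid to its tRNA. They were taken as the probe sets whose single listed gene symbol is one of 36 synthetase names, 20 for the cytosolic enzymes and 16 for the mitochondrial ones, whose symbols end in 2. Of these, 34 were measured among 19938 genes: 18 cytosolic and all 16 mitochondrial. For Aars the listed probe set carries a second gene, and Dars was not analysed here. Mars is listed under its newer symbol Mars1. Iars alone had more than 1 probe set, and the brighter was used.

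Erythroid cells were sorted from fetal liver of 6 mouse embryos (E14.5), and their biotin-labelled RNA gave 13 arrays, 1 per embryo and population. All embryos carried EporCre ki/+, a Cre recombinase knocked into the erythropoietin receptor locus, on the background the labels give as C57JB6. Knockout embryos 1, 10 and 11 were Adar1 fl/-, and control embryos 2, 13 and 15 were Adar1 fl/+, so the controls carried the same Cre and 1 floxed allele. The R26 EYFP reporter was ki/+ in every control and in knockout embryo 1, and +/+ in knockout embryos 10 and 11. The 5 groups were control (embryos 2, 13 and 15) and knockout (1, 10 and 11) Ter119- CD71+ cells, control (2, 13 and 15) and knockout (10 and 11) Ter119+ CD71+ cells, and control Ter119+ CD71med cells (13 and 15). Ter119 appears as erythroid cells mature and CD71 is the transferrin receptor, so these populations run from less to more mature. ADAR1 edits adenosine to inosine in double-stranded RNA. The Cre acts in the erythroid lineage, so other cells in a sort need not have lost the floxed allele.

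Values are log2 signals, and the number of arrays limits their precision. Adar itself was 7.39 to 7.64 in knockout and 7.20 to 7.81 in control Ter119- CD71+ cells, and 7.68 and 8.10 against 7.43 to 8.37 in Ter119+ CD71+ cells. Its groups overlapped. Whether its probes lie in the deleted exons is not known here, so it does not check the genotype. The mean of 12 erythroid markers was 10.18 to 11.57 on every array. That of 19 myeloid markers was 5.08 to 5.41 in control and 5.70 to 6.98 in knockout Ter119- CD71+ cells, highest in knockout embryo 10. The knockout Ter119+ CD71+ arrays of embryos 10 and 11 stood further apart than other replicates: the synthetase genes differed between them by a median of 0.3121 log2 units, against 0.0705 to 0.2396 between any other arrays of 1 group.

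Most amino acids have their own synthetase, and mitochondria use a largely separate set encoded in the nucleus. The list used here holds no separate mitochondrial gene for Gars, Kars or Qars, which are counted as cytosolic. The enzymes fall into 2 structural families, class I with a Rossmann fold and class II. In the cytosol several class I enzymes, Kars and Dars sit with Eprs and 3 scaffold proteins in a multisynthetase complex. Uncharged tRNA, which builds up when an amino acid or its synthetase is short, activates the kinase GCN2 (Eif2ak4), which phosphorylates eIF2 alpha and raises translation of the transcription factor ATF4. In other cells ATF4 raises many cytosolic synthetase genes together with amino acid transporters and the genes of asparagine and serine synthesis. Maturing erythroid cells keep translating globin while they lose their nucleus and, later, their mitochondria and ribosomes.

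The element to which ATF4 and C/EBP proteins bind has the core TGATGNAA. It was searched on both strands because genes of the stress arm were higher in the knockout cells. RefSeq promoters (GRCm38.p6, 250 bases before to 50 after each start) were found for 27 of the 36 listed genes. The core was in the promoters of 5 of 13 cytosolic genes (Aars, Gars, Iars, Tars and Yars) and in those of 0 of 14 mitochondrial genes, against 4.51% of 27025 genes with a promoter in the table. Of 22 genes of the stress arm with a promoter, 7 held it. Ddit3, Atf5, Cebpg and Slc7a3, which rose in knockout Ter119- CD71+ cells, were not among these 7. The 4 measured members with a match are shown with 3 stress genes that rose in both knockout populations, and with Asns, which did not. Of the other matched stress genes, Trib3 also rose in both, and Atf3 and Vldlr were called in neither. They are not shown. Each window is written along the strand of its gene, with the matched core in capitals.
Gars, chr6:55037951-55037998, plus strand: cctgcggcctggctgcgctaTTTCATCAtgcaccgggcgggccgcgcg
Tars, chr15:11399646-11399693, minus strand: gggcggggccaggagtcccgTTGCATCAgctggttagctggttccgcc
Iars, chr13:49682117-49682159, plus strand: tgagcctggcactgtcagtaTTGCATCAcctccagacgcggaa
Yars, chr4:129189886-129189932, plus strand: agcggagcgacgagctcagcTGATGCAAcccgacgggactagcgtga
Chac1, chr2:119351029-119351076, plus strand: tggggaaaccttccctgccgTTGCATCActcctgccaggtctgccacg
Nupr1, chr7:126625553-126625600, minus strand: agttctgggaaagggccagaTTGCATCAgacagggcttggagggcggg
Slc7a11, chr3:50443652-50443699, minus strand: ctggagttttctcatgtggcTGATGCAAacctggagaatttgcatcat
Asns, chr6:7693205-7693252, minus strand: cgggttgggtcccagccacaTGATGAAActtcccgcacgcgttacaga

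In Gars, Tars, Chac1, Nupr1, Slc7a11 and Asns the core starts 30, 15, 193, 110, 66 and 23 bases before the start of transcription, and in Iars and Yars 7 and 3 bases after it. The Slc7a11 promoter holds a second match, 47 bases before the start, which lies within the window shown and is left in lower case there. Eprs and Sars are not among the genes with a match, and whether their promoters were among those found is not given here. A match is a description of the letters and not a site of binding, and the list of synthetases known as ATF4 targets rests in part on such elements.

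**Figure D1:**
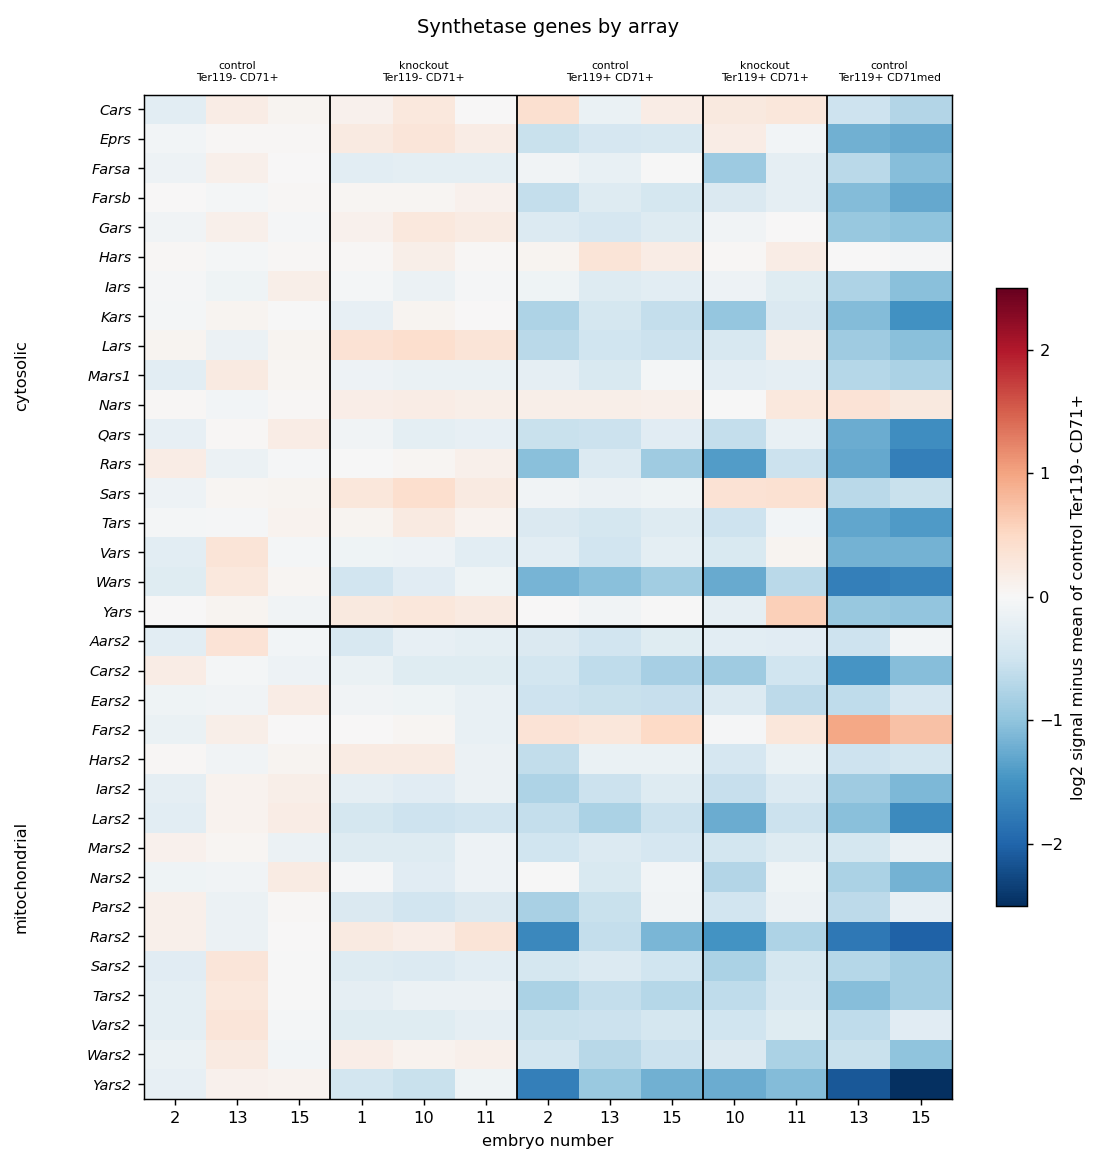
Each row is a synthetase gene and each column an array, labelled by embryo number and grouped by genotype and sorted population. Colour is the log2 signal minus the mean of that gene in control Ter119- CD71+ cells. The 2 control Ter119+ CD71med columns hold the lowest group mean for 17 of 18 cytosolic and 10 of 16 mitochondrial genes.

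The first question was whether loss of ADAR1 changed the synthetase genes in Ter119- CD71+ cells. None of the 34 passed the test, where 2.21% of all genes did, 1.35% higher and 0.858% lower (limma, adjusted p under 0.05 over all genes). An unadjusted p under 0.05 was found for 7 of the 34 and for 2825 of all 19938 genes. The median difference, knockout minus control, was 0.07 over the cytosolic genes and -0.23 over the mitochondrial ones, against 0.00 over all genes. Of the cytosolic genes 11 of 18 were positive, and of the mitochondrial genes 13 of 16 were negative.

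The 4 members with the smallest p, none of which passed, were Sars, Lars, Lars2 and Eprs. Sars, which charges serine tRNA, was 10.29, 10.47 and 10.49 in control embryos 2, 13 and 15 and 10.70, 10.84 and 10.63 in knockout embryos 1, 10 and 11. The difference was 0.31 (SE 0.10, n = 3 each, limma adjusted p = 0.133). All 3 knockout arrays lay above the controls, as did those of 5 other cytosolic genes, where 9.92% of all genes had their arrays separated in that direction. Lars, for leucine, was 11.06, 10.84 and 11.06 in the controls and 11.35, 11.41 and 11.31 in the knockouts, a difference of 0.37 (SE 0.13, limma adjusted p = 0.195). Eprs, a fused enzyme for glutamate and proline, was 11.50, 11.60 and 11.61 against 11.80, 11.86 and 11.74, a difference of 0.23 (SE 0.10, limma adjusted p = 0.287). For both genes, too, the groups did not overlap.

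The mitochondrial leucine enzyme Lars2 had values in the other direction. It was 7.92, 8.29 and 8.37 in control embryos 2, 13 and 15 and 7.74, 7.67 and 7.71 in knockout embryos 1, 10 and 11, a difference of -0.48 (SE 0.18, n = 3 each, limma adjusted p = 0.220). Its groups did not overlap, nor did those of Cars2 and Pars2, 3 of 16 mitochondrial genes, where 11.6% of all genes were separated downward. Among 25 genes of mitochondrial translation 0 passed and the median was -0.19. Of the 19 myeloid markers 4 rose in the same knockout cells (Mpo, Fcnb, S100a9 and Ms4a3). Of 5 lymphoid markers 1 rose, Ptprc, at 5.10 to 5.30 in control and 6.45 to 7.65 in knockout arrays. With the mean of the 19 as a covariate 0 synthetase genes passed, as without it. In this population that mean was higher on every knockout than on every control array. It thus overlaps with genotype in the fit, and the count decides nothing about the part of the markers. The mean of the 12 erythroid markers was 10.18 to 10.42 in the knockout and 10.52 to 10.71 in the control, and 1 of the 12 fell. Its part in these values was not tested. When limma weighted arrays by their quality, 5 passed, Sars, Lars and Yars higher and Lars2 and Sars2 lower.

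In Ter119+ CD71+ cells the same comparison called 2 of 34 members, where 2.56% of all genes were called, 1.48% higher and 1.08% lower. Both were cytosolic and higher in the knockout. Eprs was 11.01, 11.15 and 11.17 in control embryos 2, 13 and 15 and 11.74 and 11.50 in knockout embryos 10 and 11, and it rose by 0.51 (SE 0.11, n = 2 against 3, limma adjusted p = 0.0243), or 1.43-fold. Sars was 10.33, 10.27 and 10.30 in the controls and 10.78 and 10.79 in the knockouts, and it rose by 0.48 (SE 0.11, limma adjusted p = 0.0308). Each gene's knockout arrays lay above all 3 controls. In the less mature knockout cells their differences were 0.23 and 0.31.

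The next members by p did not pass. Gars, for glycine, was 10.93 to 11.02 in the 3 controls and 11.26 and 11.35 in the knockouts, a difference of 0.32 (SE 0.11, limma adjusted p = 0.160). Lars was 10.32, 10.49 and 10.45 against 10.58 and 11.14, a difference of 0.44 (SE 0.15, limma adjusted p = 0.175). Neither gene's groups overlapped, and 4 of 18 cytosolic genes had their knockout arrays above all controls, where 11.4% of all genes did. The lowest value was that of Farsa, the alpha subunit for phenylalanine, at -0.48 (SE 0.17, limma adjusted p = 0.225), with knockout arrays of 7.78 and 8.47 that themselves differed by more than this. The class medians were 0.07 for cytosolic and 0.03 for mitochondrial genes, against 0.02 for all genes, and their sign rested on single arrays. Without knockout embryo 10 they were 0.26 and 0.12, and without knockout embryo 11 they were -0.10 and -0.03. The mitochondrial median was also -0.02 without control embryo 2 and with arrays centred on their medians. The erythroid marker mean was 10.93 and 11.08 in these knockout arrays and 11.24 to 11.51 in the controls, with 0 of 12 called. The mean of 11 hepatocyte markers was 6.11 and 6.48 against 6.66 to 6.90, with 1 of 11 lower, and that of 5 megakaryocyte markers 6.56 and 6.62 against 6.76 to 6.94, with 0 of 5 called. The part of these markers in the synthetase values was not tested.

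The calls of Eprs and Sars did not hold in every setting. Without knockout embryo 10 neither passed (0.39, adjusted p = 0.237, and 0.49, adjusted p = 0.147, limma), while Lars and Yars did, and without knockout embryo 11 both passed and Farsa was lower. Without control embryo 2 or 15 neither passed, and without control embryo 13 Eprs alone did. Both were also lost with arrays centred on their medians (limma adjusted p = 0.0633 and 0.0803) and in a fit that includes reporter genotype (0.50 and 0.44, limma adjusted p = 0.869 and 0.933). In this population both knockout arrays lack the reporter and every control carries it, so genotype and reporter cannot be told apart here.

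**Figure D2:**
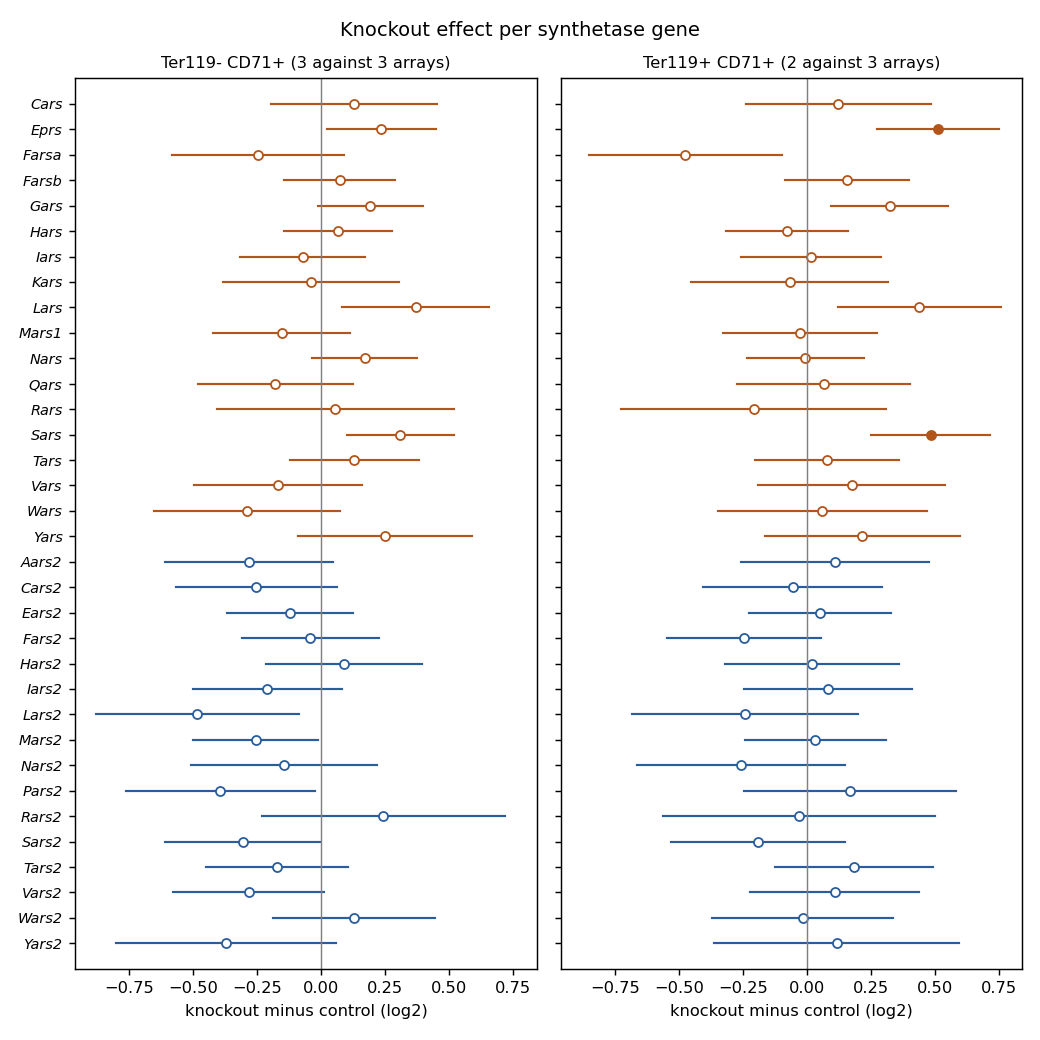
Knockout minus control difference of each synthetase gene (log2 units) with its 95% confidence interval from the limma fit, in Ter119- CD71+ cells on the left and Ter119+ CD71+ cells on the right. Cytosolic genes are orange, mitochondrial genes blue, and filled points passed the test, which were Eprs at 0.51 and Sars at 0.48 in Ter119+ CD71+ cells.

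The knockout effects in the 2 populations were then compared with each other. None of the 34 members differed between them, where 0.01% of all genes did (limma interaction). An unadjusted p under 0.05 was found for 1 of the 34 and for 1087 of all 19938 genes. The 1 member was Pars2, the mitochondrial proline enzyme, with a knockout difference of -0.39 in Ter119- CD71+ and 0.17 in Ter119+ CD71+ cells (interaction 0.56, SE 0.26, limma adjusted p = 0.914). For Eprs the interaction was 0.28 with a 95% interval of -0.04 to 0.60, so the call in Ter119+ CD71+ cells is not shown to be particular to them. For Vars2 and Tars2, which with these had the smallest p, it was 0.39 (interval -0.05 to 0.83) and 0.36 (interval -0.06 to 0.77).

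The synthetases were set beside the stress arm, the genes around eIF2 alpha and ATF4. Of 23 measured genes of that list 8 rose and 0 fell in knockout Ter119- CD71+ cells, and 6 rose and 0 fell in Ter119+ CD71+ cells. Their medians were 0.37 and 0.41. Of the 12 measured synthetases known as ATF4 targets in other cells, 0 and 2 rose, with medians of 0.15 and 0.15. The 6 other cytosolic synthetases had 0 and 0 called and medians of 0.01 and -0.07. Over all genes 1.35% and 1.48% rose, 0.858% and 1.08% fell, and the medians were 0.00 and 0.02.

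The transporter gene Slc7a11, the cystine carrier, was 4.94 to 5.53 in control and 8.31 to 8.70 in knockout Ter119- CD71+ cells. The glutathione-degrading enzyme gene Chac1 was 6.54 to 6.93 in control and 8.04 to 8.79 in knockout cells. Its difference was 1.68 (SE 0.20, limma adjusted p = 0.00065). Its promoter and that of Tars carry the same 8 capital letters in the windows shown above, and Tars was 10.40, 10.42 and 10.54 in control and 10.52, 10.68 and 10.55 in knockout cells, a difference of 0.13 (SE 0.12, limma adjusted p = 0.753). In Ter119+ CD71+ cells Tars had a difference of 0.08 (95% interval -0.20 to 0.36). Tars was picked after its values were seen. Of the other measured members with a match, Gars and Yars had higher means in knockout than in control Ter119- CD71+ cells. Gars was 11.54 against 11.35 and Yars 9.45 against 9.20. Iars was lower, at 12.04 against 12.11, and none of them was called there.

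Asns, the asparagine synthetase gene and a standard target of ATF4, was picked after its values were seen. It was 12.28 to 12.31 in control and 12.32 to 12.37 in knockout Ter119- CD71+ cells, a difference of 0.05 (95% interval -0.13 to 0.24). These signals lie near the top of the range of the arrays. Atf4, likewise picked, had differences of 0.09 (SE 0.12) and -0.28 (SE 0.13) in the 2 populations, neither called. Wars, which charges tryptophan tRNA and is known to be induced by interferon, had -0.29 (95% interval -0.66 to 0.07) and 0.06 (interval -0.35 to 0.47). The stress arm count varied with the setting from 3 higher when the myeloid mean was a covariate to 11 with array weights in Ter119- CD71+ cells. In Ter119+ CD71+ cells it was 2 to 6, lowest with the EYFP covariate.

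**Figure D3:**
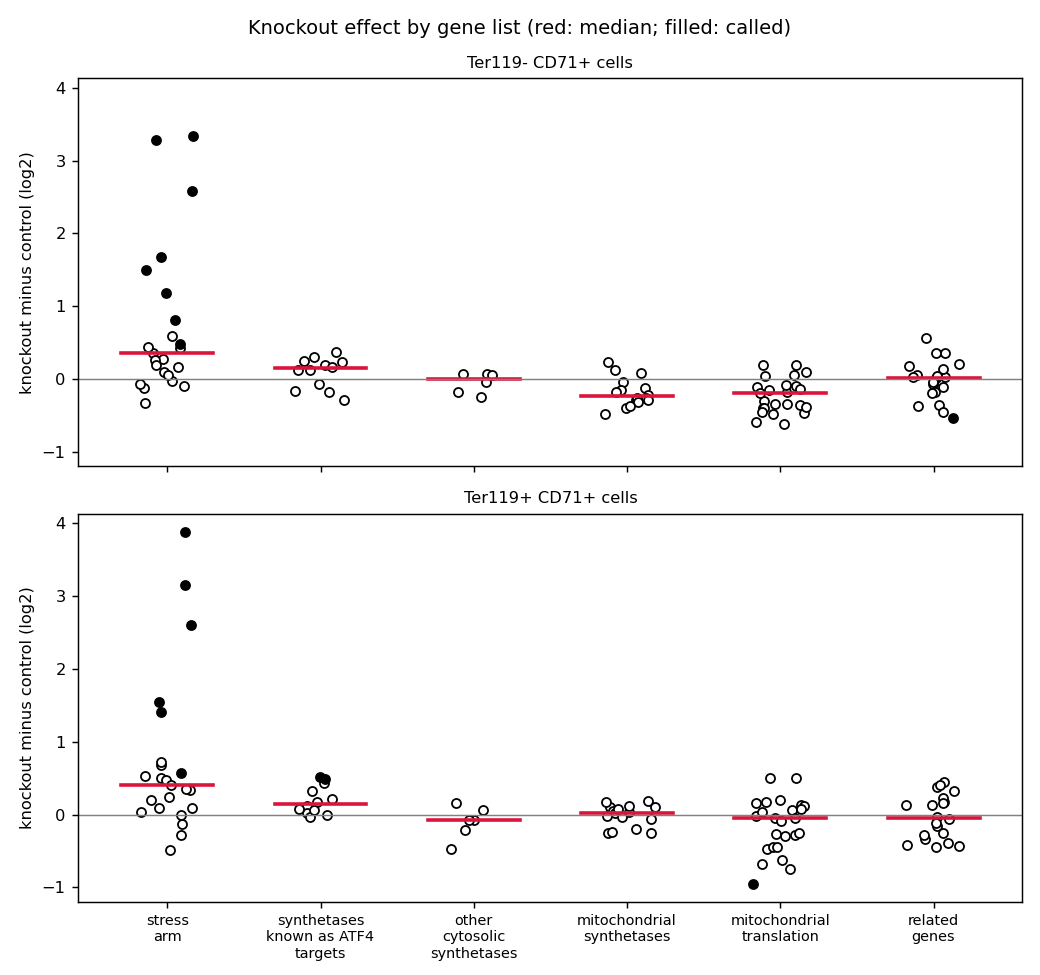
Each point is a gene, at its knockout minus control difference (log2 units) in Ter119- CD71+ cells above and Ter119+ CD71+ cells below. Filled points passed the test and red bars are medians. The stress arm has 8 and 6 filled points, the synthetases known as ATF4 targets 0 and 2, and the mitochondrial synthetases none. Of all genes 2.21% and 2.56% passed.

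Around the enzymes themselves, 20 further genes of tRNA charging and delivery were measured. In knockout Ter119- CD71+ cells 1 of them fell and 0 rose. This was Aimp2, a scaffold protein of the multisynthetase complex, at 9.98, 10.39 and 10.26 in control embryos 2, 13 and 15 and 9.64, 9.61 and 9.75 in knockout embryos 1, 10 and 11. All knockout arrays lay below the controls, and the difference was -0.54 (SE 0.12, limma adjusted p = 0.0408). The call was lost when any 1 knockout array, or the array of control embryo 13 or 15, was left out (differences of -0.45 to -0.58, limma adjusted p of 0.0621 to 0.197). A fit that includes the mean of the myeloid markers gave -0.51 (limma adjusted p = 0.828). Median centring, only the groups compared and the EYFP covariate also lost the call (limma adjusted p = 0.0569, 0.0676 and 0.429). In Ter119+ CD71+ cells the Aimp2 difference was -0.43 (SE 0.14, limma adjusted p = 0.146). The other scaffold genes, Aimp1 and Eef1e1, had -0.06 and 0.21 in Ter119- CD71+ cells and -0.15 and 0.13 in Ter119+ CD71+ cells, none called. Of 25 mitochondrial translation genes 1 fell in Ter119+ CD71+ cells, the ribosomal protein gene Mrpl20, at -0.95 (SE 0.18, limma adjusted p = 0.0114). It was 7.67, 7.62 and 7.59 in control embryos 2, 13 and 15 and 6.33 and 7.02 in knockout embryos 10 and 11. Both knockout arrays lay below the controls, embryo 10 much further. Without embryo 10 the difference was -0.61, which rests on 1 knockout array, and the call was not kept. The Mrpl20 call was also lost with only the groups compared, array weights and the EYFP covariate (limma adjusted p = 0.1345, 0.0534 and 0.464). As for Eprs and Sars, genotype and reporter cannot be told apart in this population.

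More synthetase genes were called between stages than between genotypes. From control Ter119- CD71+ to Ter119+ CD71+ cells 19 of 34 members fell and 1 rose, where 19% of all genes were called, 11.7% lower and 7.27% higher. Of the cytosolic genes 9 of 18 fell, with a median of -0.35, and of the mitochondrial genes 10 of 16 fell, with a median of -0.53, against 0.04 for all genes. RMA brings the arrays towards a like distribution, so a fall is relative to the other transcripts of the cell. The upper quartile over all genes still fell along the control populations. It was 7.816 to 7.917 in Ter119- CD71+ arrays, 7.545 to 7.695 in Ter119+ CD71+ and 7.420 and 7.274 in Ter119+ CD71med. Its part in the falls was not tested. In these bulk sorts fewer cells that express a gene and less RNA per cell cannot be told apart.

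The 6 largest falls were in 4 mitochondrial and 2 cytosolic genes. Yars2, for mitochondrial tyrosine tRNA, was 10.88, 11.20 and 11.18 in control embryos 2, 13 and 15 before the step and 9.38, 10.16 and 9.89 after it. It fell by 1.28 (SE 0.20, n = 3 each, limma adjusted p = 0.000379), and its groups did not overlap. Rars2, for mitochondrial arginine, was 9.04, 8.78 and 8.93 and then 7.31, 8.33 and 7.79, and it fell by 1.11 (SE 0.22, limma adjusted p = 0.00231). The values of embryo 2 bracket those of the other controls, highest before the step and lowest after it.

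Wars was 8.40, 8.96 and 8.76 before the step and 7.55, 7.67 and 7.83 after it, and it fell by 1.03 (SE 0.17, limma adjusted p = 0.000579). Rars, the cytosolic arginine enzyme, was 10.86, 10.54 and 10.64 and then 9.63, 10.33 and 9.79, and it fell by 0.76 (SE 0.21, limma adjusted p = 0.0214). Its later arrays spread over more than those of Wars, and its call was lost when any single array of embryo 2 or 15 was left out (limma adjusted p up to 0.105). Tars2, for mitochondrial threonine, was 7.54, 8.04 and 7.78 and then 7.00, 7.19 and 7.07. It fell by 0.71 (SE 0.13, limma adjusted p = 0.00126). Cars2, for mitochondrial cysteine, was 7.57, 7.34 and 7.26 and then 6.93, 6.75 and 6.56, and it fell by 0.64 (SE 0.15, limma adjusted p = 0.00573).

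Arrays of all 3 embryos after the step lay below all 3 before it for 10 of 18 cytosolic and 13 of 16 mitochondrial genes, where 17.3% of all genes were so separated. The other members called lower were Eprs, Farsb, Gars, Kars, Lars, Qars and Tars in the cytosol and Ears2, Iars2, Lars2, Mars2, Vars2 and Wars2 in mitochondria. The single member that rose was Fars2, the mitochondrial phenylalanine enzyme, from 8.01, 8.33 and 8.19 to 8.52, 8.46 and 8.68, by 0.38 (SE 0.13, limma adjusted p = 0.0491). The call of Fars2 is at the threshold and held in 7 of 17 other settings. With embryo as a fixed block Fars2 and Tars did not pass (limma adjusted p = 0.0962 and 0.0768), and Pars2 (-0.48) and Sars2 (-0.42) did (0.0478 and 0.0413). In all, 11 members were called without the Ter119+ CD71+ array of control embryo 2 and 12 without the Ter119- CD71+ array of control embryo 13. The second Iars probe set was lower (-0.47, limma adjusted p = 0.0056 over all probe sets), whereas the one used was not called (-0.23).

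The second step, from control Ter119+ CD71+ to Ter119+ CD71med cells, again called 19 members lower and 1 higher, where 13.3% of all genes were called, 9.21% lower and 4.11% higher. Here 14 of 18 cytosolic genes fell, with a median of -0.71, and 5 of 16 mitochondrial genes, with a median of -0.24, against 0.08 for all genes. With arrays quantile-normalized again 11 cytosolic and 3 mitochondrial genes fell, with medians of -0.58 and -0.18, against 0.03 for all genes. Both CD71med arrays lay below all 3 Ter119+ CD71+ arrays for 17 cytosolic and 8 mitochondrial genes, where 19% of all genes did. This step uses the same Ter119+ CD71+ arrays as the first, so an error in them would push the steps in opposite directions.

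Of the 6 largest falls 4 were cytosolic. Tars, the cytosolic threonine enzyme, was 10.09, 10.02 and 10.13 in control embryos 2, 13 and 15 before the step and 9.17 and 9.03 in embryos 13 and 15 after it. It fell by 0.98 (SE 0.13, n = 2 against 3, limma adjusted p = 0.000533). Yars, for tyrosine, was 9.22, 9.11 and 9.18 and then 8.26 and 8.21, and it fell by 0.94 (SE 0.18, limma adjusted p = 0.00386). Its replicates lay close on both sides of the step, and in the first step its difference was -0.03.

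Qars, the glutamine enzyme, was 9.50, 9.52 and 9.77 before the step and 8.81 and 8.51 after it, and it fell by 0.94 (SE 0.16, limma adjusted p = 0.00194). Vars, for valine, was 9.03, 8.83 and 9.06 and then 8.11 and 8.11, and it fell by 0.86 (SE 0.17, limma adjusted p = 0.00505). In both genes every later array was below every earlier one. The mitochondrial members were Yars2, at 9.38, 10.16 and 9.89 and then 8.97 and 8.38, which fell by 1.13 (SE 0.22, limma adjusted p = 0.0049), and Nars2. The latter, for asparagine, was 8.69, 8.32 and 8.64 and then 7.91 and 7.53, and it fell by 0.83 (SE 0.19, limma adjusted p = 0.0108).

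The other members called lower were Cars, Eprs, Farsa, Farsb, Gars, Iars, Kars, Mars1, Sars and Wars in the cytosol and Cars2, Lars2 and Rars2 in mitochondria. The calls of these 3 mitochondrial genes held in 9, 7 and 6 of 16 other settings, and that of Wars in 10. Fars2 rose again, to 9.13 and 8.92, by 0.47 (SE 0.14, limma adjusted p = 0.0399), a call kept in 4 of 16 other settings. With embryo as a fixed block Fars2 and Cars2 did not pass (limma adjusted p = 0.132 and 0.0566), and Iars2 did (-0.57, limma adjusted p = 0.0213). Much of the second step rests on control embryo 15. Without its CD71med array 8 members were called, 7 cytosolic and 1 mitochondrial (Cars2), and the calls of Yars2, Vars and Nars2 were lost (limma adjusted p = 0.0956, 0.0502 and 0.153). Myeloid markers moved with this step: their mean was 5.21 to 5.32 before it and 5.69 and 5.81 after it, 0 of 19 were called, and with that mean as a covariate 12 members were called, 0 of them higher. Hepatocyte markers rose in both steps, 7 and 4 of 11, with array means of 6.11 to 6.30, 6.66 to 6.90 and 7.27 to 7.30 in the 3 control populations; their part in the falls was not tested.

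**Figure D4:**
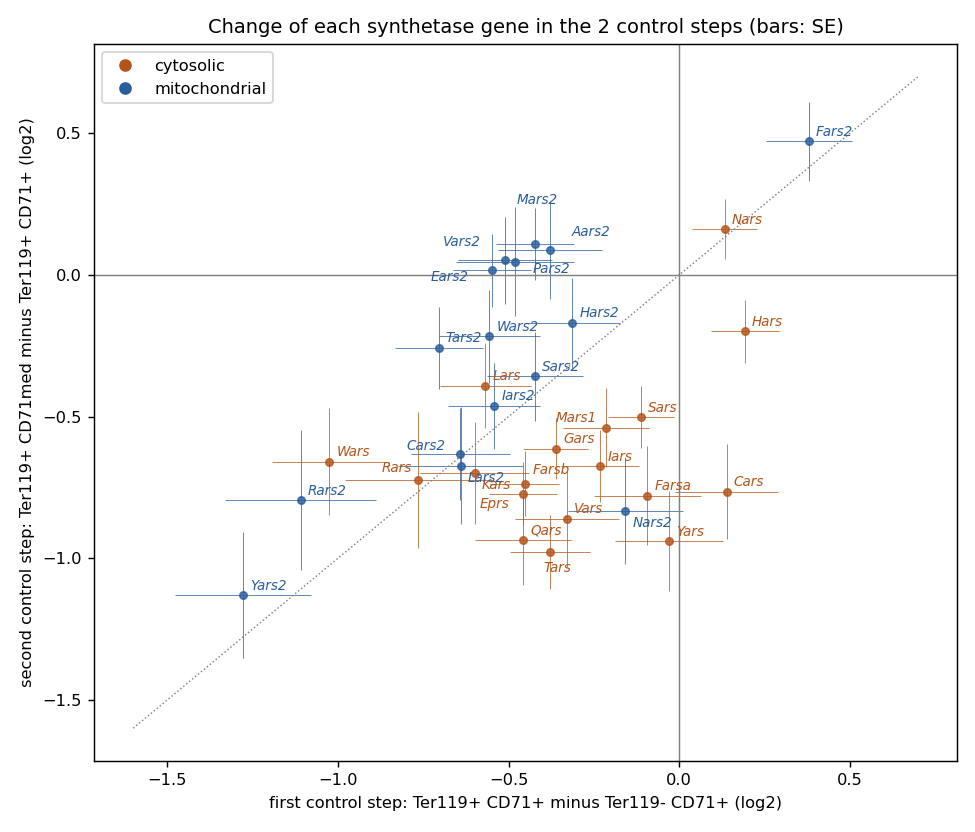
Each point is a synthetase gene, at its difference in the first control step (horizontal axis) and in the second (vertical axis), both in log2 units, with bars of 1 SE and a dotted line of equal change. The steps share the control Ter119+ CD71+ arrays, which by itself tilts the points. Fars2 lies farthest to the upper right, with 0.38 and 0.47, and Yars2 farthest to the lower left, with -1.28 and -1.13.

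Within each control embryo the class medians were negative, to differing degrees. In control embryo 2, which has the first step alone, the cytosolic median was -0.17, with 10 of 18 genes lower, and the mitochondrial median -0.47. In control embryo 13 the cytosolic median was -0.35 in the first step and -0.59 in the second, and the mitochondrial median -0.61 and -0.30. In control embryo 15 they were -0.35 and -0.83, and -0.46 and -0.26. Whether a gene changed more in one step than in the other was tested directly, by a contrast added after the values were seen. None of the 34 was called, where 1.33% of all genes were (0.777% lower and 0.557% higher). Of the 34, 11 had an unadjusted p under 0.05, as did 2374 of all 19938 genes. The second step minus the first was negative in 14 of 18 cytosolic genes (median -0.36). It was positive in 14 of 16 mitochondrial genes (median 0.23, or 0.12 without the Ter119+ CD71+ array of control embryo 2). Over all 19938 genes 11219 were positive and the median was 0.04. The shared Ter119+ CD71+ arrays enter both steps, so an error in them counts in each. The smallest p belonged to Cars, cytosolic, at -0.90 (SE 0.27, limma adjusted p = 0.138), followed by Yars at -0.91 (SE 0.29, limma adjusted p = 0.160), so a difference in timing was not shown for any single gene.

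**Figure D5:**
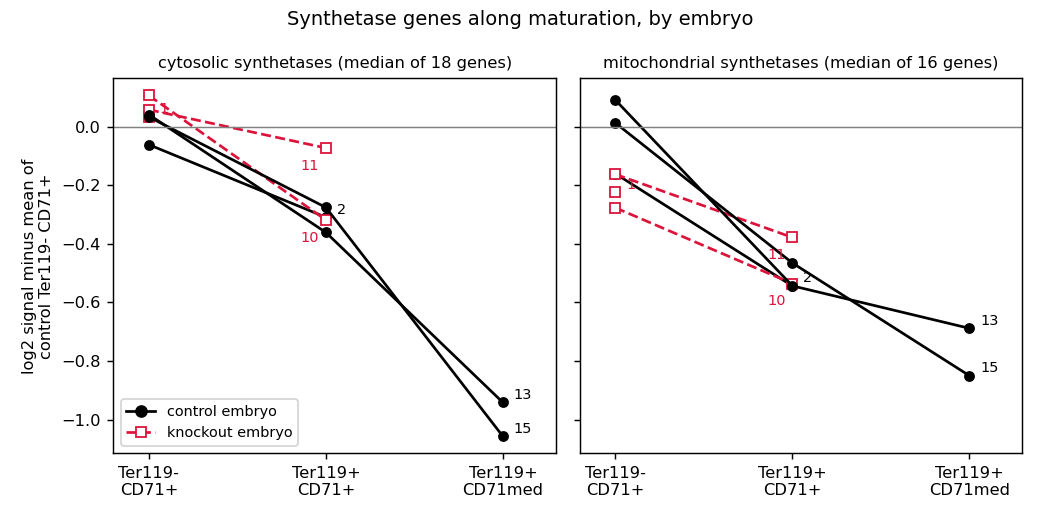
Median over the cytosolic (left) and mitochondrial (right) synthetase genes of the log2 signal minus the control Ter119- CD71+ mean, per array, with lines joining arrays of the same embryo and labels giving its number. The cytosolic medians of control embryos 13 and 15 reach -0.94 and -1.06 in Ter119+ CD71med cells, and the mitochondrial medians -0.69 and -0.85.

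Over the whole control span, a contrast also added after the values were seen, 28 of 34 members fell and 2 rose from Ter119- CD71+ to Ter119+ CD71med cells, where 38.2% of all genes were called, 20.1% lower and 18.1% higher. Markers of other cells rose over the same span: 9 of 11 hepatocyte, 4 of 5 megakaryocyte, 6 of 12 macrophage and 3 of 19 myeloid markers were higher, and 1 macrophage marker was lower. Their array means went from 6.11 to 6.30 to 7.27 and 7.30 for hepatocyte, from 6.20 to 6.42 to 6.95 and 7.30 for megakaryocyte and from 4.95 to 5.11 to 5.33 and 5.39 for macrophage markers. Their part in the falls was not tested. The cytosolic median was -0.97 and the mitochondrial median -0.78, against 0.14 for all genes. Arrays at the end lay below all those at the start for 30 members, where 24.1% of all genes did. Yars2 had the largest difference, from 10.88, 11.20 and 11.18 to 8.97 and 8.38, a 5.31-fold fall (-2.41, SE 0.22, limma adjusted p = 1.64e-06). Eprs fell by 1.23 (SE 0.11), Farsb by 1.19 (SE 0.11) and Tars by 1.36 (SE 0.13). Of the 30 calls 26 held in every one of 16 other settings.

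The members that rose over the span were Fars2, by 0.85 (SE 0.14, limma adjusted p = 0.000256), and Nars, the cytosolic asparagine enzyme. Nars was 11.64, 11.54 and 11.63 in Ter119- CD71+, 11.74, 11.74 and 11.73 in Ter119+ CD71+, and 11.94 and 11.86 in Ter119+ CD71med control cells. It rose by 0.29 (SE 0.11, limma adjusted p = 0.0429), a call kept in 4 of 16 other settings. It was lost without each single array of the comparison and with embryo as a fixed block (limma adjusted p = 0.102). Fars2 was called higher in all 16. Hars, for histidine, was 10.57 to 10.66 at the start and 10.63 and 10.60 at the end, a difference of -0.01 (95% interval -0.25 to 0.23). Aars2, Mars2 and Pars2 were not called either, at -0.29, -0.31 and -0.44.

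By structural family, 18 of 19 class I members fell over the span and 0 rose. Of the 15 class II members 10 fell and 2 rose, where 20.1% of all genes fell and 18.1% rose. The fused enzyme Eprs, which has a part of each family, is counted in class I. The 7 measured enzymes of the multisynthetase complex all fell, with a median of -1.23 and a range from -1.49 for Rars to -0.75 for Mars1. Their scaffold genes moved with them: Aimp1 fell by 0.66 in the first step and 0.75 in the second, and Eef1e1 by 0.90 and 0.95. Aimp2 fell by 0.40 in the first step and had -0.31 in the second, which did not pass. Of the 20 related genes 16 fell over the span, led by Dtd1, an enzyme that removes D-amino acids from tRNA, at -2.20 (SE 0.19), and the tRNA export receptor Xpot was at -1.44 (SE 0.14). Of 25 mitochondrial translation genes 23 fell, led by the ribosomal protein gene Mrps18b at -3.25 (SE 0.20).

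The sensor of uncharged tRNA fell over the same span. Eif2ak4 was 1.90 lower in Ter119+ CD71med than in Ter119- CD71+ control cells (SE 0.19, limma adjusted p = 2.52e-06). In contrast Eif2ak1, the heme-regulated eIF2 alpha kinase, rose by 1.26 (SE 0.12), and Psat1, of serine synthesis, fell by 3.05 (SE 0.14). Over the 23 genes of the stress arm 4 rose and 6 fell (17.4% and 26.1%), near the 18.1% and 20.1% of all genes.

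In the knockout the single step available, from Ter119- CD71+ to Ter119+ CD71+ cells, called 7 of 34 members, all lower, where 10.7% of all genes were called, 6.24% lower and 4.5% higher. They were Kars, Lars, Rars and Wars in the cytosol and Rars2, Wars2 and Yars2 in mitochondria. The medians were -0.20 for cytosolic and -0.33 for mitochondrial genes, against 0.05 for all genes. Without the Ter119+ CD71+ array of embryo 10 they were -0.12 and -0.13. All 7 were also among the 19 of 34 called lower in the control step, which uses other arrays. The like overlap over all genes was not counted, so this is not shown to be particular to the synthetases. The steps differ by the interaction given above, which called no member.

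Rars2 was 9.15, 9.10 and 9.24 in knockout embryos 1, 10 and 11 before the step and 7.42 and 8.14 in embryos 10 and 11 after it. It fell by 1.38 (SE 0.25, n = 2 against 3, limma adjusted p = 0.00259). Rars was 10.66, 10.72 and 10.82 and then 9.27 and 10.14, and it fell by 1.03 (SE 0.24, limma adjusted p = 0.0133). In both genes embryo 10 was the lower of the pair after the step.

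Yars2 was 10.63, 10.53 and 10.98 before the step and 9.84 and 10.01 after it, and it fell by 0.79 (SE 0.22, limma adjusted p = 0.0368). Wars2, for mitochondrial tryptophan, was 7.59, 7.51 and 7.56 and then 7.06 and 6.64, and it fell by 0.70 (SE 0.16, limma adjusted p = 0.0136), with embryo 11 the lower. Wars was 8.22, 8.44 and 8.60 and then 7.45 and 8.04, and it fell by 0.67 (SE 0.19, limma adjusted p = 0.0357). Kars, for lysine, was 9.81, 10.07 and 10.03 and then 9.03 and 9.65, and it fell by 0.63 (SE 0.18, limma adjusted p = 0.0382). For these 6 genes the later arrays lay below all earlier ones, as for 18 of the 34 members, where 17.1% of all genes did.

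These calls depend on the arrays that stand apart. Without the Ter119+ CD71+ array of knockout embryo 10 the count was 1, and without that of embryo 11 it was 11. Without the Ter119- CD71+ array of embryo 10 or 11 it was 4 or 3. With embryo as a fixed block Lars (-0.50) did not pass (limma adjusted p = 0.127), and its call held in 6 of 16 other settings, that of Yars2 in 8 and those of Kars and Wars in 9 each. The myeloid markers also moved with this step: 4 of 19 fell, from array means of 5.70 to 6.98 to 5.21 and 5.43, and with their mean as a covariate 1 member was called. Of 5 lymphoid markers 1 fell, Ptprc. The class medians within embryos differed in size: -0.35 cytosolic and -0.45 mitochondrial in embryo 10, and -0.11 and -0.19 in embryo 11.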

How the data were processed

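Arrays of 13 sorted erythroid samples were used as deposited: the authors' log2 signals. RMA is named in the submitters' processing notes, without a version, as is mm9, without its role. Of 35556 probe sets, 21789 carry a single symbol, and the brightest on average was kept per gene, which left 19938 genes. limma 3.58.1 (R 4.3.3) was fitted with 5 group means on all arrays (8 residual and 5.56 prior degrees of freedom), two-sided, with Benjamini-Hochberg adjustment over all genes. The threshold was an adjusted p of 0.05. Every one of the 34 members passed the alternative filter on low signals.

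The members and lists were chosen with earlier results of these data known. The rule named members called in a knockout comparison (or the 4 smallest p), the 6 largest called differences of each maturation step and up to 4 called members of each other list. Fars2, Nars, Hars, Farsa, Wars in the knockout, Tars in the knockout, Asns and Atf4 were picked after their values were seen. The fits were tested on simulated data.

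Embryo numbers mark the same animal, and each sample came from 1 mouse. Of 9 same-embryo pairs of arrays 4 had residual correlations above 0.1 (range -0.225 to 0.350, consensus 0.00385), so the numbers entered as a block in alternative fits. Correlations between profiles of members are not given because the arrays fall into groups. Figures were drawn with matplotlib 3.10.9.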

Additional observations from a re-analysis of the deposited data

How the results depend on the processing

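The settings tried were quantile normalization again, median centring, a filter on low mean signal, the mean of probe sets, eBayes with trend and robust, only the groups compared, the EYFP genotype or the myeloid marker mean as a covariate, array weights, embryo as a replicate block, and leaving out each array. No direction of a called value reversed. In knockout Ter119- CD71+ cells array weights called 5 members, where 0 were called otherwise. In Ter119+ CD71+ cells 0 were called with median centring, only the groups compared, the EYFP covariate or array weights, and 0 to 3 without single arrays. The first control step gave 11 to 18 calls without single arrays. The second gave 12 with the myeloid covariate and 8 to 19 without single arrays. The knockout step gave 4 with median centring, 4 with only the groups compared, 1 with the myeloid covariate, 3 with array weights and 1 to 11 without single arrays. The second step minus the first gave 1 with only the groups compared, 1 with array weights and 0 to 1 without single arrays. The interaction stayed at 0 in 22 settings. With embryo as a random replicate block the counts were 20, 20, 7, 2 and 0 for the first, second and knockout steps, Ter119+ CD71+ and Ter119- CD71+ cells. As a fixed replicate block the steps gave 20, 19 and 6, and the calls that changed are named beside their results, with no other call changed. The cause of these changes was not tested.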
